A study of Rattus norvegicus with 12 samples.

Results

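Between-rat variation was measured in the renal cortex of all 12 rats of the series, as the spread that remained after each gene's group mean was subtracted. The 4 groups, of 3 rats each, were TBA under CO2-O2, vehicle under CO2-O2, TBA under isoflurane and vehicle under isoflurane. Every rat was a male Sprague-Dawley (Crl:CD(SD)) animal, bought at 5 weeks of age. TBA rats were given tert-butyl alcohol, an industrial solvent, at 1000 mg/kg/day for 4 weeks, and vehicle rats were given water for the same time. Rats were killed 24 h after the last dose under either a CO2-O2 mixture or the anaesthetic isoflurane. Each rat gave 1 array on which a single dye, Cy3, was scanned.

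Levels are log2 of the processed intensity minus the array's own 75th percentile, so that 0 is the brightness below which 75% of an array's probes lay. Of 61657 probes that were not controls, 36224 stood well above background on all 12 arrays. After 22 of them with an outlier flag were left out and the brightest probe was taken for each gene, 28451 features remained, of which 10933 had a gene symbol and 17518 did not. For each feature the deviations of the 12 rats from their group means were pooled into a standard deviation with 8 degrees of freedom, called the spread. Probes with several targets and near-identical gene copies are measured together on such arrays. The labels call the samples replicates of a group and do not describe cages, litters or extraction days, so tests measure the spread between these samples. Rats are numbered by the sample whose scanner file was used. In the submitters' series table every column followed an array of another rat of the same group, so a replicate number below names an array and its link to 1 labelled animal is uncertain, while the groups are the same in both.

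The renal cortex holds glomeruli, in which podocytes and capillaries filter blood, and the tubule segments that take salt, sugar, amino acids and water back from the filtrate. The first tubule segment, the proximal tubule, carries transporters whose levels in the rat depend on sex hormones, above all in its last part, S3. Sprague-Dawley rats are an outbred stock, so animals of a group are not genetically identical. In bulk RNA, fewer cells of a type and less RNA per cell cannot be told apart. Of the lists of renal markers, 17 of 18 genes of the proximal segments S1-S2, 15 of 16 of the thick ascending limb and 16 of 20 of podocytes were measured on all arrays. So were 15 of 18 markers of inner medulla and papilla, parts of the kidney outside the cortex.

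The spread of most genes was small. Its median over all features was 0.138 (log2), with 5% of features under 0.0526 and 5% over 0.436. A spread of at least 0.5 was reached by 1005 features, 3.53% of all. The widest 10%, used to describe gene groups, began at 0.328 and the narrowest 10% ended at 0.0632, each holding 2846 features. Brighter features varied less. The median spread was 0.250 in the dimmest 10% of features and 0.0797 in the brightest 10%. Control RNA of the E1A series, which is added in fixed amounts to each sample, gave spreads of 0.0399 to 0.0749 in 7 of its 8 probes and 0.123 in the dimmest. The narrowest 10% of features thus had spreads within or below the range of these control values. Each control value was a mean over 11 to 35 spots of an array, while a feature is 1 spot. The control spreads therefore leave out part of the noise of single spots and are not a technical floor for features.

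**Figure D1:**
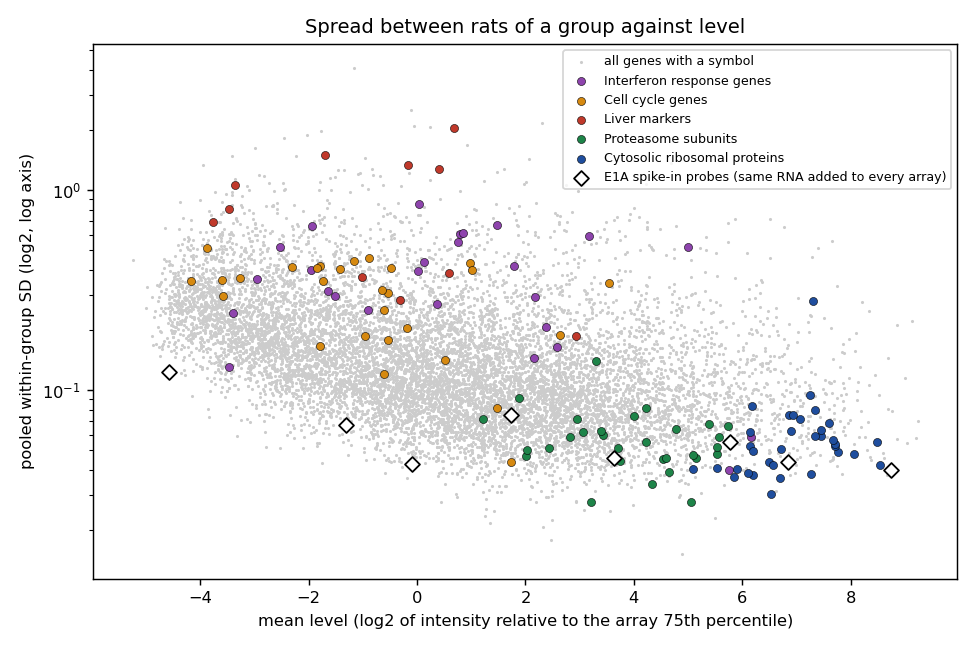
The spread between rats of a group (vertical, log2 units on a log axis) is plotted against the mean level (horizontal, log2 relative to the array's 75th percentile) for 10933 genes with a symbol, with 5 gene lists in colour and the 8 E1A control probes as diamonds. Ribosomal and proteasome genes lie at spreads like those of the control probes, while liver, interferon response and cell cycle genes lie mostly above the cloud at their level. Each control probe is a mean over 11 to 35 spots and each gene 1 spot.

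Among the narrow lists were genes of functions that all cells share. Cytosolic ribosomal protein genes, whose products build the ribosome, had a median spread of 0.0526, and 25 of 34 fell in the narrowest 10%. Proteasome subunits, which form the machine that degrades tagged proteins, had a median of 0.0535 with 21 of 30 in the narrowest 10%. Subunits of oxidative phosphorylation, the mitochondrial pathway that makes ATP, had a median of 0.0694 with 15 of 38, and enzymes of the citric acid cycle a median of 0.0685 with 6 of 21. Aminoacyl-tRNA synthetases, which charge tRNAs, stood at 0.0648 with 7 of 19, and RNA polymerase II with its general factors at 0.0721 with 9 of 21. No gene of these 6 lists fell in the widest 10%. They held 81 of the 1309 genes with a symbol in the narrowest 10% and 0 of the 10 narrowest genes. Narrowness also goes with brightness. Within 20 bins of equal level, 12 of 34 ribosomal, 10 of 30 proteasome, 5 of 19 synthetase and 5 of 21 polymerase genes were in the narrowest 10% of their own bin, and the median ratio of a gene's spread to its bin's median was 0.688, 0.647, 0.659 and 0.671 in that order. Oxidative phosphorylation had 4 of 38 genes there, with a ratio of 0.890, and the citric acid cycle 1 of 21, with 0.847, near the 10% of all features.

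Single genes show how close rats of a group could be. Rps15, a protein of the small ribosomal subunit, had levels of 6.53, 6.56 and 6.57 in TBA rats under CO2-O2, against 6.57, 6.58 and 6.62 in vehicle rats under CO2-O2. Under isoflurane its levels were 6.58, 6.6 and 6.63 in TBA rats, against 6.35, 6.42 and 6.43 in vehicle rats. Its spread was 0.030, and rats of a group lay within 0.1 of each other. Psmb4, a subunit of the proteasome core, had a spread of 0.028, and Psmc3, an ATPase of its cap, also 0.028. Among the 10 genes with the smallest spread, at 0.015 to 0.025, were Nptn, Ppil2, Tmem179b, Zfand2b, Rnaset2, Fbxo8, Ptdss2, Ppcdc and Zranb2. Nptn, a cell adhesion protein, led with 0.015, while its second probe had a spread of 0.047. Rnaset2, a ribonuclease of the lysosome, had 0.023 and its second probe 0.052, so both were less extreme by another probe.

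Common reference genes were not all among the narrowest. Of 17 measured, 4 were in the narrowest 10% and 0 in the widest, with a median of 0.0914. Gapdh, an enzyme of glycolysis, had a spread of 0.074 and Actb, the cytoskeletal actin, 0.148. Tfrc, the transferrin receptor that brings iron into cells, was the widest of them at 0.250. Rpl19 had the widest spread among ribosomal genes at 0.279, but its second probe had 0.049 and did not follow the first (r = -0.25).

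The widest lists held genes of plasma proteins, of the interferon and cytokine responses, of proliferation, and of enzymes and transporters under hormonal control. Genes best known from liver, of which 10 encode plasma proteins and 1 is the P450 Cyp2c11, had a median spread of 0.802, and 9 of 11 were in the widest 10%. Markers of proximal tubule S3 had a median of 0.444 with 7 of 12, interferon response genes 0.378 with 14 of 26, and genes regulated by androgens or sex-biased in kidney 0.362 with 10 of 20. Cell cycle genes had a median of 0.349 with 15 of 28, cytokines and NF-kB targets 0.347 with 12 of 21, and glutathione, glucuronosyl and sulfo transferases, which conjugate foreign compounds and steroids, 0.341 with 11 of 22. Glucocorticoid targets stood at 0.339 with 11 of 19. Each of these shares is at least 50%, against 10% of all features. Other immune lists were less wide, with 7 of 17 complement and acute phase genes, 2 of 18 genes of MHC class II and antigen presentation and 1 of 19 leukocyte markers in the widest 10%. Within bins of equal level the counts in the widest 10% of the bin were 9, 8, 14, 13, 13, 13, 17 and 13 for the 8 lists in that order. Removing the slide inside the group only leaves out TBA CO2-O2 replicate 3, the lone array of its group on its slide. The median spread was then 0.790 for liver, 0.408 for S3, 0.363 for interferon and 0.334 for cell cycle genes.

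**Figure D2:**
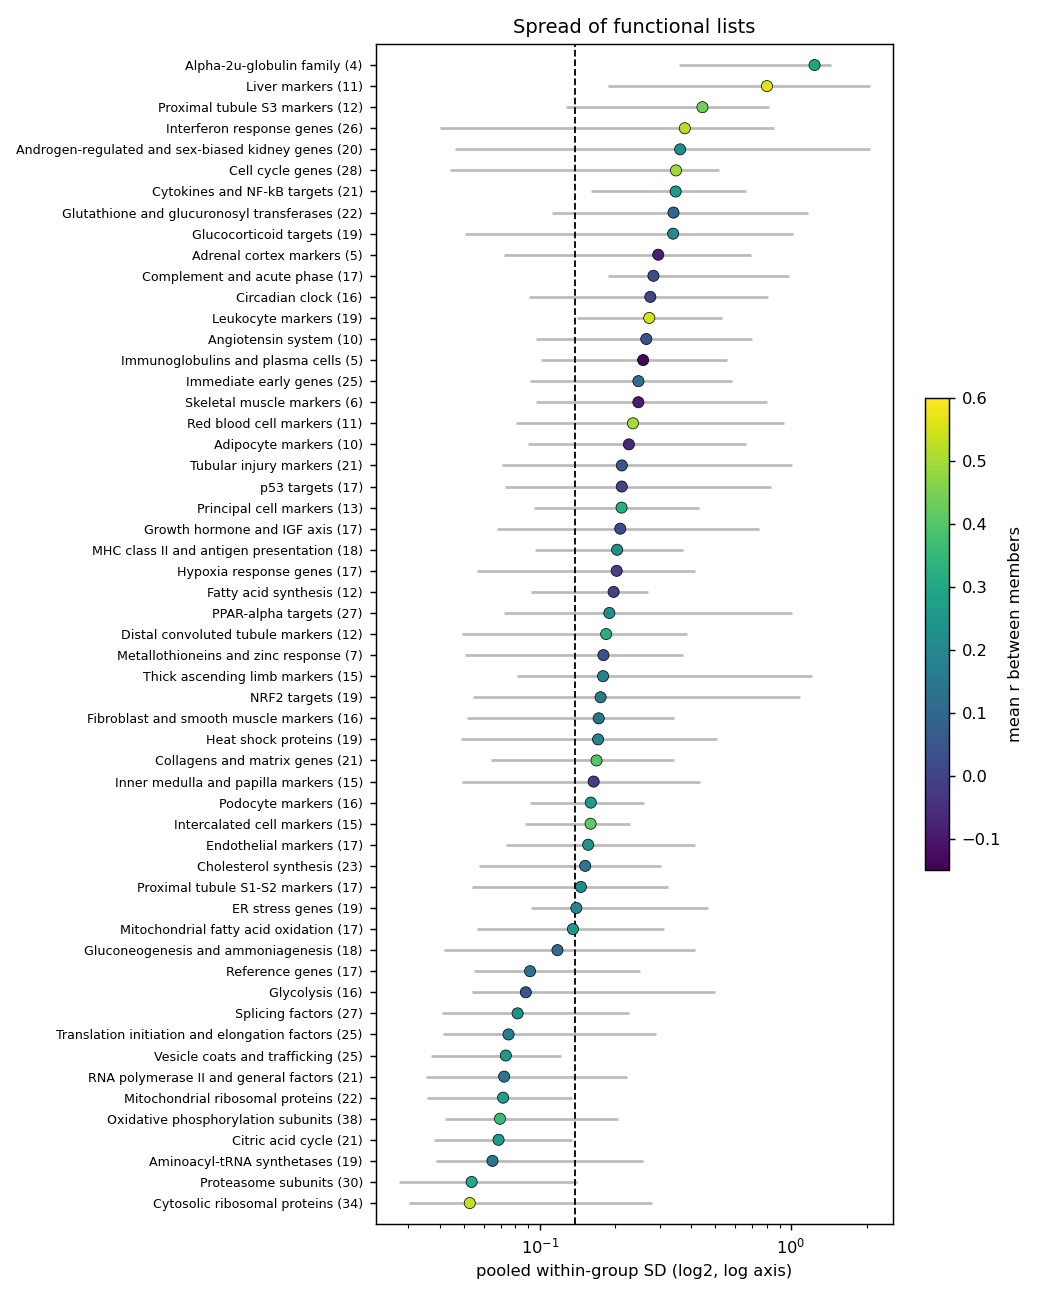
Points give the median spread (log2, log axis) of each of 55 gene lists, with the number of genes measured in brackets, grey lines the range from the narrowest to the widest member, and colour the mean correlation between members over 12 rats. The dashed line marks the median of all features, 0.138, with the machinery and energy lists at the bottom left of it and alpha-2u-globulin and liver lists far to the right.

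The widest single genes had levels that differed many-fold between rats given the same treatment. Gal, which encodes the neuropeptide galanin, had the largest spread, 4.07. Its levels were -4.24, -4.14 and -3.84 in TBA rats under CO2-O2, against -4.68, 3.17 and 3.99 in vehicle rats under CO2-O2. In the isoflurane groups they were -5.07, -4.60 and 3.05 in TBA rats, against -4.69, 3.30 and 3.76 in vehicle rats. No rat had a level between -3.84 and 3.05, so that 7 rats lay below and 5 above a gap of 6.88. Ubd, a ubiquitin-like protein induced by cytokines, had a spread of 2.53, with 4 rats at -3.14 or lower and 8 at 0.76 or higher.

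A gap of at least 2 between neighbouring rats, with at least 2 rats on each side, was seen in 26 features, 0.0914% of all, of which 12 had a symbol. In all 12, 2 or more groups held rats on both sides, so the gap was not a split between whole groups. This does not show that a gap was unrelated to group. Besides Gal and Ubd these included Tac4, Or13p4, Prl3d4, Crygd, Or5b123b, Cryga, Hsd17b1, Ttr and Mis18a, where Hsd17b1 lies outside the 20 widest genes and is named for its gap. Ttr, the transthyretin that carries thyroid hormone, had levels of -2.78, -2.39 and 0.20 in TBA rats under CO2-O2, against -0.11, 0.58 and 0.88 in vehicle rats under CO2-O2. Levels under isoflurane were -2.38, -0.21 and 1.12 in TBA rats, against -0.04, 1.01 and 2.11 in vehicle rats. The 3 low rats were all TBA rats, and 9 rats, 3 of them TBA rats, lay at -0.21 or higher.

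Cryga and Crygd, crystallins known from the eye lens, had spreads of 2.17 and 2.10 and followed each other at r = 1.00 (12 rats). Levels of Cryga were -0.46, 2.76 and 4.44 in TBA rats under CO2-O2, against 0.53, 3.48 and 3.62 in vehicle rats under CO2-O2. Under isoflurane they were -0.12, 3.36 and 3.42 in TBA rats, against -0.47, 3.40 and 3.75 in vehicle rats. Each group held 1 rat at 0.53 or lower and 2 rats at 2.76 or higher. Idh1, a cytosolic enzyme that makes NADPH, lies next to Cryga among measured genes in the RefSeq order of the GRCr8 assembly and followed it at r = 0.98, with a smaller spread of 0.486. Crygd had a second probe, which varied little (spread 0.097) and did not follow the first (r = -0.18), so its 2 probes disagree.

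**Figure D3:**
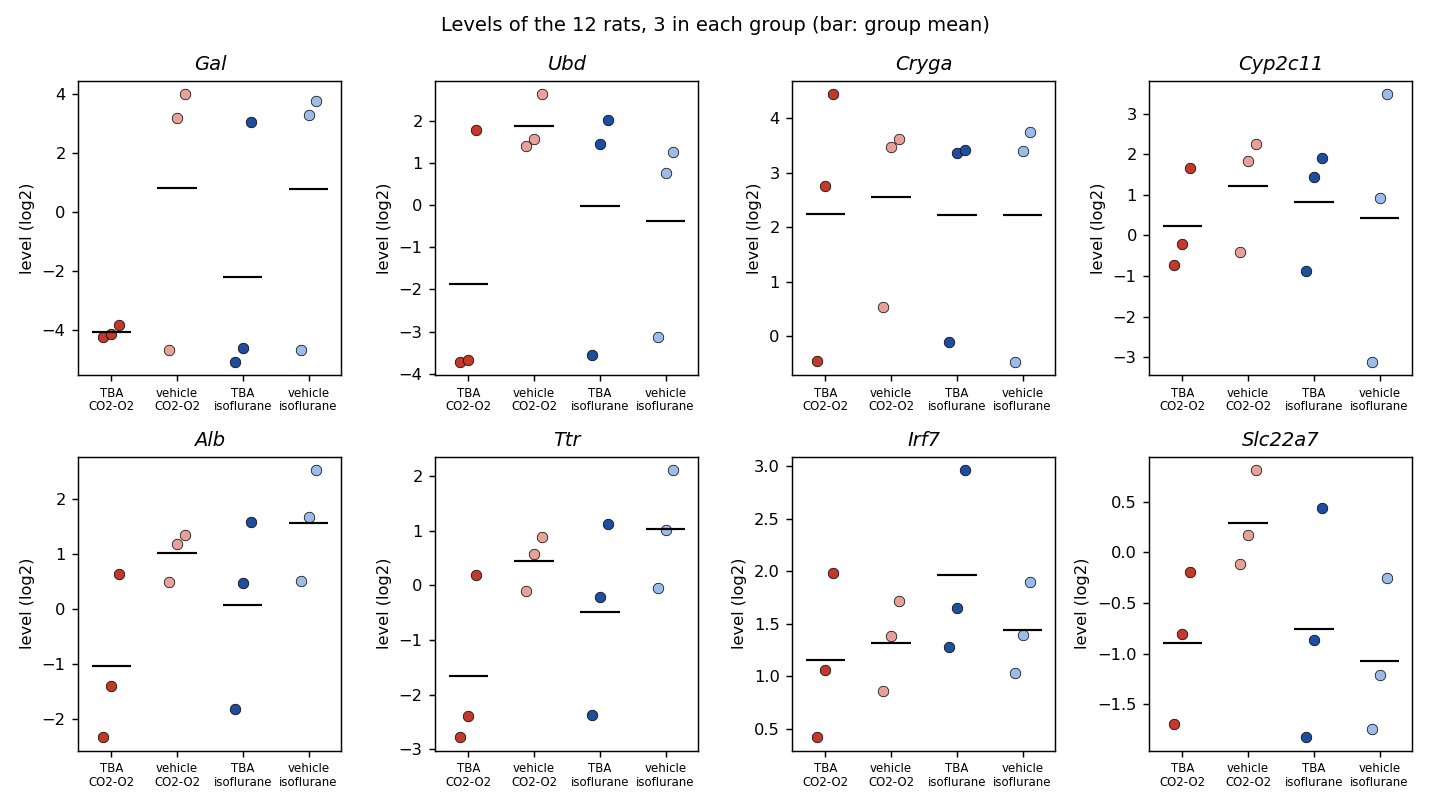
Levels (log2 relative to the array's 75th percentile, linear axes that differ between panels) of 8 genes are shown for the 3 rats of each group, with bars at the group means. Gal, Ubd and Cryga fall into separate high and low rats inside groups, and Cyp2c11, Alb, Ttr, Irf7 and Slc22a7 are spread out within groups.

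For some genes the spread rested on a single rat. Rrm2b, a subunit of ribonucleotide reductase, had a spread of 1.5, with 97.9% of its squared deviation in vehicle rats under isoflurane, whose levels were -3.87, -3.64 and 1.31. Without vehicle isoflurane replicate 2 its spread was 0.238. Slpi, an inhibitor of leukocyte proteases, had 92.9% in the same group, with levels of -4.81, 0.33 and 1.22, and its spread was 0.536 without the same rat, against 1.69 with it. Both genes thus owed most of their width to 1 animal, which was high in Rrm2b and low in Slpi. Hmox1, which breaks down haem, had levels of -1.48, -1.1 and 2.14 in TBA rats under isoflurane and a spread of 1.06, or 0.412 without TBA isoflurane replicate 1. Kifc1, a motor protein of the spindle, had 0.618 without vehicle CO2-O2 replicate 2, against 1.43 with it. Ephx2, which opens fatty acid epoxides, had 0.674 without vehicle CO2-O2 replicate 3, against 1.28 with it. Leaving out 1 rat lowered the spread by over 1.5 times in 22.4% of the widest 10%, against 19.5% of all features. Over all features, 53.7% had 50% or more of the squared deviation in 1 group, and in the widest 10% 53.6% had.

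Neighbouring genes varied together more often than other pairs when both were wide. Among 10911 pairs of measured genes next to each other in the GRCr8 order, 85 pairs, 0.779%, had a correlation above 0.9. Of the 181 such pairs with both genes in the widest 10%, 30, or 16.6%, passed 0.9, against 0.492% of 611990 pairs of widest genes that were not neighbours. The mean correlation of the 181 was 0.29, against 0.006 in pairs that were not neighbours. Symbols shared their first 3 letters in 57 of the 181 pairs, of which 21 passed 0.9. Family members with similar sequence can share probe signal, whose part was not tested. Examples are Kng1 and Kng2, the kininogens (r = 1.00), Cyp2d5 and Cyp2d1 (r = 1.00), and Hsd3b2 and Hsd3b1, enzymes of steroid synthesis (r = 0.99). The other 9 of the 30 came from the 124 pairs whose first 3 letters differed. Among them were Acss2 and Gss (r = 0.96), Cryga and Idh1 (r = 0.98) and the interferon-induced pair Rsad2 and Cmpk2 (r = 0.93). They also held Obp3 and Mup4l4 (r = 1.00), both of the lipocalin cluster described below. These pairs were picked after their values were seen, share their 12 arrays and are described with no test. Likeness also joined genes on different chromosomes. Tac4, on chromosome 10, and the olfactory receptor Or13p4, on chromosome 5, correlated at r = 1.00, while a second Tac4 probe did not follow the first (r = -0.19). Both genes lay at the negative end of the second principal component (r = -0.81 and -0.80). That component went with the share of probes detected on an array, as described below, and the part of detection in this likeness was not tested.

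Plasma protein genes varied as a block. The mean correlation between the 11 liver genes was 0.56, against 0.004 over all features. Split after the values were seen, the 10 plasma protein genes had a mean of 0.66 among themselves, while Cyp2c11, the widest of the list, correlated with them at a mean of 0.13 and with Alb at 0.31. Alb, which encodes serum albumin, had levels of -2.34, -1.41 and 0.63 in TBA rats under CO2-O2, against 0.49, 1.18 and 1.34 in vehicle rats under CO2-O2. In the isoflurane groups they were -1.84, 0.46 and 1.57 in TBA rats, against 0.50, 1.67 and 2.52 in vehicle rats. The 3 rats at -1.41 or lower were TBA rats, while the other 3 TBA rats lay between 0.46 and 1.57, near the vehicle rats. The genes most like Alb over the 12 rats were Ttr (r = 0.99), Apoc1 (r = 0.99), Itih4 (r = 0.98), Mug1, a protease inhibitor (r = 0.98), and Hp, haptoglobin (r = 0.98). Apoc3 and Fgb had the smallest spreads of the list, at 0.187 and 0.283. Genes called most like another, here and below, are extremes picked from all 10933 genes with a symbol and were not tested. Rpl19, whose 2 probes disagree, also had extremes of r = 0.93 and -0.93.

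The alpha-2u-globulin list, named for urinary proteins that male rats make under androgen and growth hormone control, had 4 of 14 genes measured, all in the widest 10%, with a median spread of 1.24. When each rat was left out, the median lay between 0.963 and 1.33. It was 0.963 without TBA CO2-O2 replicate 3, which is also the fit with the slide inside the group removed. Obp3 and Mup5 belong to the lipocalin cluster on chromosome 5 in GRCr8, while Rup2 is on chromosome 8 and LOC690045 on chromosome 4, so only 2 of the 4 belong there by position. LOC690045 lies next to Klri1 (r = 0.79) and Ly49si1 (r = 0.86) among measured genes. Mup4l4 (spread 1.19) and Mup4l1 (1.01), on either side of Mup5, were measured but are not in the list, and followed Mup5 at r = 1.00 and 0.99. Values of the list, here and below, thus mix genes of the cluster with others. Levels of Mup5 were -4.46, -3.96 and -1.21 in TBA rats under CO2-O2, against -0.67, -0.36 and -0.25 in vehicle rats under CO2-O2. Levels under isoflurane were -3.05, -1.91 and -0.49 in TBA rats, against -1.22, 0.07 and 1.30 in vehicle rats. TBA rats under CO2-O2 held 48.3% of the squared deviation and vehicle rats under CO2-O2 0.7%. In that TBA group replicate 3 lay on another slide than replicates 1 and 2, and the part of the slide was not tested. Mup5 followed Obp3 (r = 1.00), Rup2 (r = 0.98) and Alb (r = 0.95), but not LOC690045 (r = -0.37). Near-identical members of the cluster share probe signal, so their levels are uncertain one by one. Liver genes and the alpha-2u list correlated at a mean of 0.47, and liver genes with ribosomal protein genes at 0.49. Red blood cell markers moved with liver genes at 0.38. The share of probes detected on an array moved with these lists, at a mean r of -0.53 for liver, -0.52 for alpha-2u and -0.52 for ribosomal genes, and so did the array's 75th percentile of intensity, at -0.55 for liver, -0.48 for alpha-2u and -0.68 for ribosomal genes. Their part in the result was not tested.

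Interferon response genes varied together. These genes are switched on by type I and II interferons through STAT and IRF factors and limit viral growth. The mean correlation among the 26 measured was 0.52, and it lay between 0.41 and 0.55 when each rat was left out. Irf7, the factor that amplifies the response, had levels of 0.42, 1.06 and 1.98 in TBA rats under CO2-O2, against 0.85, 1.38 and 1.72 in vehicle rats under CO2-O2. Under isoflurane they were 1.27, 1.65 and 2.96 in TBA rats, against 1.03, 1.40 and 1.90 in vehicle rats. Every group held a rat at 1.27 or lower and a rat at 1.72 or higher, and the groups overlapped. The median spread of the list was 0.371 in TBA rats under CO2-O2, against 0.139 in vehicle rats under CO2-O2. Under isoflurane it was 0.548 in TBA rats, against 0.162 in vehicle rats. Over all groups it was 0.378, and between 0.266 and 0.403 when each rat was left out. Without TBA isoflurane replicate 2 the spread of Rsad2 was 0.353, against 0.548 with it, and that of Mx1 0.260, against 0.418. The widest members were Rtp4 (spread 0.853), Irf7 (0.667), Usp18, which removes ISG15 from proteins (0.665, or 0.425 without TBA isoflurane replicate 2), and Oas1a, which makes the activator of RNase L (0.614). The narrowest were Oas1b (0.040) and Mx2 (0.059), and a second Mx2 probe had a spread of 0.604, so its 2 probes disagree. Irf7 was most like Oas1a (r = 0.98), Oas1k (r = 0.97) and Ccdc65 (r = 0.96).

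Promoter sequences are shown for this block because its genes varied together and many share a short motif. The 250 bases before each gene's start were taken from RefSeq on GRCr8 and searched on both strands for GAAA, any 2 bases and GAAA, the core of the interferon-stimulated response element, to which IRF and STAT factors bind. Of 26 measured interferon genes 17 had a promoter in the table, and 13 of these, 76.5%, held the motif, against 3.29% of 27457 promoters. The windows are those of the 5 widest of the 13, with the matches inside each window in capitals, written 5′ to 3′ on the gene's strand.
Irf7 (chr1:205800048-205800127, minus strand): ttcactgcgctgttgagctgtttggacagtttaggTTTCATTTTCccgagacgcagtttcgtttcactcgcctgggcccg
Oas1a (chr12:41330396-41330465, plus strand): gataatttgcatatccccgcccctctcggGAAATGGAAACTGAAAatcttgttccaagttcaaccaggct
Rsad2 (chr6:48788223-48788302, minus strand): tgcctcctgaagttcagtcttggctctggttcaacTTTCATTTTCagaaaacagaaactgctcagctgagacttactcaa
Ifit3 (chr1:241527247-241527325, plus strand): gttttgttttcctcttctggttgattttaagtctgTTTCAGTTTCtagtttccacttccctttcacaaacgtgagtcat
Ifi27 (chr6:128355193-128355272, plus strand): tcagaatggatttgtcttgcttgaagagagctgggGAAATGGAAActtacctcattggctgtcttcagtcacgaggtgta

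Oas1a had 2 overlapping matches. The median spread was 0.361 in the 13 genes with the motif and 0.346 in the 4 without it. A match in these windows is a description of letters and says nothing of binding in these kidneys.

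Markers of leukocytes formed a further block, with a mean correlation of 0.55 and a median spread of 0.273 over 19 genes, of which 1 was in the widest 10% of all features and 10 in the widest 10% at their level. When each rat was left out, the mean correlation lay between 0.44 and 0.59 and the median spread between 0.202 and 0.290. Cd53, a membrane protein of white blood cells, had levels of 0.52, 0.63 and 0.73 in TBA rats under CO2-O2, against 0.91, 0.92 and 1.25 in vehicle rats under CO2-O2. In the isoflurane groups they were 0.34, 0.40 and 1.02 in TBA rats, against 0.16, 0.18 and 0.72 in vehicle rats. In each of the isoflurane groups 1 rat stood above the others. Cd53 was most like Tyrobp (r = 0.97), Fermt3 (r = 0.96), Ap1s2 (r = 0.96) and Tmsb4x (r = 0.95), and was opposite to Umod, the uromodulin of the thick ascending limb (r = -0.95). Umod too was picked as an extreme from all genes with a symbol, and its relation to Cd53 was not tested. The median spread of leukocyte markers was 0.405 in TBA rats under isoflurane and 0.148 in TBA rats under CO2-O2, against 0.163 in vehicle rats under isoflurane and 0.190 in vehicle rats under CO2-O2. Without TBA isoflurane replicate 2 the spread of Tyrobp was 0.181, against 0.273 with it, and that of Cd68 0.160, against 0.314. Cd3g instead narrowed most without vehicle CO2-O2 replicate 3, from 0.273 to 0.164. Cytokine genes, with Ccl2, Cxcl13, Cxcl10 and Il1b as the widest at 0.532 to 0.664 (Cxcl10 at 0.385 without TBA isoflurane replicate 2), correlated among themselves at 0.26 and with leukocyte markers at 0.34. Interferon and leukocyte genes correlated at 0.42, a value not taken again with a rat left out.

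Cell cycle genes correlated at a mean of 0.49. The widest were the genes of mitosis Cenpf (0.517), Kif20a (0.456), Ccna2 (0.441) and Cdk1 (0.433), the kinase that starts mitosis. Levels of Cdk1 were 0.67, 1.37 and 1.55 in TBA rats under CO2-O2, against 0.53, 1.12 and 1.19 in vehicle rats under CO2-O2. Levels under isoflurane were 0.63, 1.26 and 1.47 in TBA rats, against 0.23, 0.59 and 1.14 in vehicle rats. Every group held at least 1 rat below 0.70 and at least 1 above 1.1. The replication genes Pcna (0.044) and Mcm7 (0.081) had the smallest spreads of the list. Cdk1 was most like Plk1 (r = 0.99), Kif20a (r = 0.99), Ckap2 (r = 0.99) and Prc1 (r = 0.98). The short motif CCAAT, on either strand, was in the 250 bases before 14 of 20 of these genes that had a promoter in the table, 70.0%, against 34.3% of all promoters. The letters TTTGAA of the cell cycle homology region were in 5 of the 20, 25.0%, against 16.0%. Of 15 clock genes with a promoter, 3 held the E-box CACGTG, 20% against 5.80%, and 1 the D-box, 6.67% against 0.816%. The sterol regulatory element, TCAC, any base and CCAC, was in 0 of 16 cholesterol synthesis genes, against 0.976% of all promoters. The window of Cdk1 is shown as an example, with 2 of its 3 matches in capitals.
Cdk1 (chr20:19265209-19265283, plus strand): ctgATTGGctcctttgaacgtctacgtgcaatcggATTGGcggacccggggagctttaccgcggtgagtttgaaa

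Markers of proximal tubule S3, most of them transporters, varied opposite to interferon genes and leukocyte markers. Slc22a7, the organic anion transporter 2, had levels of -1.69, -0.80 and -0.20 in TBA rats under CO2-O2, against -0.11, 0.18 and 0.81 in vehicle rats under CO2-O2. Under isoflurane they were -1.83, -0.87 and 0.44 in TBA rats, against -1.74, -1.21 and -0.25 in vehicle rats. Its spread was 0.815. Under CO2-O2 all TBA rats lay below all vehicle rats, and under isoflurane the groups overlapped. Slco1a6 (0.767), Gpm6a (0.749) and Slc7a12 (0.746) followed in width, while Cyp7b1 (0.127) and the acylase Acy3 (0.158) were narrow. The genes most like Slc22a7 were Wwp1 (r = 0.98), Oat, which breaks down ornithine (r = 0.98), and Spetex2d (r = 0.97). The mean correlation was 0.44 inside the S3 list, -0.43 with interferon genes and -0.34 with leukocyte markers. With other immune lists it was nearer 0, at -0.26 for cytokines, -0.18 for MHC class II and antigen presentation, -0.12 for complement and 0.01 for immunoglobulins. Genes regulated by androgens, which share Cyp2c11, Slc22a7 and Slco1a6 with the liver or S3 lists, correlated at -0.34 with interferon genes. Markers of the S1-S2 segment had a median spread of 0.146, with 0 of 17 genes in the widest 10%. Cyp2c11, the male-specific P450 of rat liver, had the widest spread of the androgen list at 2.05, with 65.4% of its squared deviation in vehicle rats under isoflurane, whose levels were -3.11, 0.92 and 3.48.

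**Figure D4:**
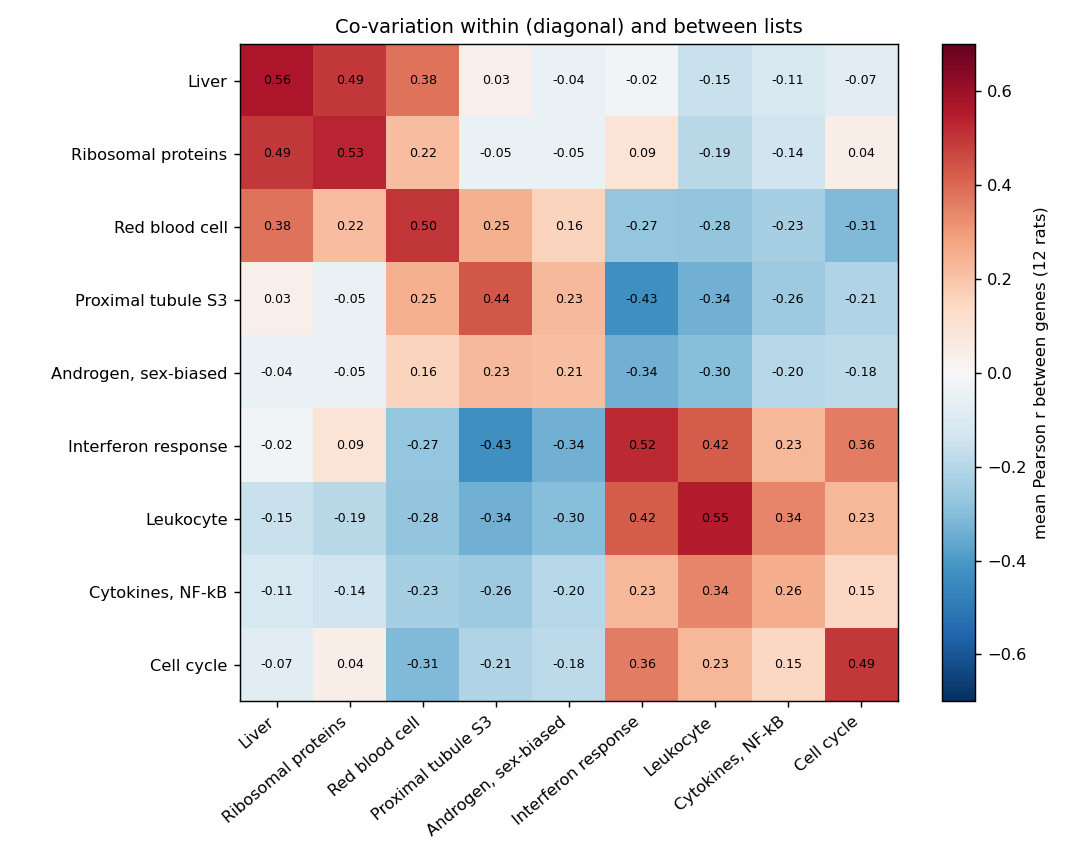
Cells give the mean Pearson correlation over 12 rats between genes of the lists on the 2 axes, with the mean inside a list on the diagonal, from blue (negative) to red (positive). Interferon, leukocyte, cytokine and cell cycle genes form a red block at the lower right, and S3 and androgen-regulated genes are blue against it, down to -0.43.

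Further lists also held wide genes. The 16 clock genes, which time daily rhythms, had a median spread of 0.275 and a mean correlation of 0.00. The list holds both activators and repressors. Per1, a repressor that glucocorticoids also induce, had a spread of 0.719, and Dbp, an output factor, 0.484, or 0.280 without TBA CO2-O2 replicate 1. Immediate early genes, which answer stimuli within minutes, had a median of 0.247 with 6 of 25 in the widest 10% and a mean correlation of 0.13. Fos had 0.254 and Egr1 0.325. Of 21 markers of tubular injury 7 were in the widest 10%, among them Fabp1 (1.01), Tff3 (0.720) and Spp1, osteopontin (0.573), with a mean correlation of 0.05, while Clu, clusterin, had 0.345. Havcr1 and Lcn2 were not among the measured features and are not described. NRF2 targets, of the defence against oxidants, had a median spread of 0.175, near the 0.138 of all features, and a mean correlation of 0.16, with 6 of 19 in the widest 10%, led by Akr1b8 (1.08) and Hmox1 (1.06). Glucocorticoid targets had a mean correlation of 0.20, beside 0.21 in the androgen list, and lay between 0.12 and 0.24 when each rat was left out. They were led by Zbtb16, a transcription factor (1.02), and held the narrow metallothioneins Mt2A (0.051) and Mt1 (0.079). Among conjugating enzymes Ugt2b7 (1.17) and Gstm1 (0.835) were wide and Gsta1 (0.111) was narrow. Agt, angiotensinogen, had a spread of 0.697. Igf1, a growth factor under growth hormone control, had 0.160 and Umod 0.211, or 0.140 without vehicle isoflurane replicate 1.

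Red blood cell transcripts were a block of smaller width. Their median spread was 0.235 over 11 genes, 2 of them in the widest 10% of all and 8 in the widest 10% at their level, with a mean correlation of 0.50. Hbb, the beta chain of haemoglobin, had levels of 7.10, 7.41 and 7.75 in TBA rats under CO2-O2, against 7.37, 7.46 and 7.48 in vehicle rats under CO2-O2. In the isoflurane groups they were 6.96, 7.24 and 7.51 in TBA rats, against 6.80, 6.96 and 7.17 in vehicle rats. All groups overlapped except the vehicle groups. Hba-a1 (r = 0.99) and Alas2, the first enzyme of haem synthesis in red cells (r = 0.98), followed Hbb, while Fech (0.080) and Bpgm (0.107) had small spreads. These markers correlated at -0.31 with cell cycle genes and at 0.22 with ribosomal protein genes.

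Gene pairs chosen by function were tested for co-variation. Deviations of one gene were permuted within groups in all 1296 orders, an exact two-sided test whose smallest possible p is 0.0007716, with Benjamini-Hochberg adjustment over the 36 of 52 pairs that were measured. By Pearson's r 10 pairs passed, 9 positive and 1 negative, and by Spearman's rho 9 did. Isg15 and Mx1, both interferon-induced, had r = 0.979 (exact permutation adjusted p = 0.00694) and rho = 0.993 (adjusted p = 0.00926), and r = 0.969 without the 2 rats farthest from the median of Isg15. Ccnb1, the cyclin of mitosis, and its kinase Cdk1 had r = 0.964 (exact permutation adjusted p = 0.00694) and rho = 0.916 (adjusted p = 0.00926), and r = 0.944 without 2 rats. Slc22a7 and the S3 transporter Slc7a13 had r = 0.917 (exact permutation adjusted p = 0.0278) and rho = 0.888 (adjusted p = 0.0340), and r = 0.844 without 2 rats. This call was lost in 10 of 12 fits that left out 1 rat, all but those without vehicle CO2-O2 replicate 1 or 3. The exact permutation adjusted p was up to 0.0648 in these fits, while r stayed at 0.862 or higher. The fit with the slide inside the group removed is the one without TBA CO2-O2 replicate 3, among those 10 (r = 0.907, exact permutation adjusted p = 0.05). With 1 rat left out the smallest possible p is 0.00231. Sqle and Idi1, enzymes of cholesterol synthesis, had r = 0.934 (exact permutation adjusted p = 0.00694) and rho = 0.881 (adjusted p = 0.0340), and r = 0.883 without 2 rats.

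The negative pair was of the clock. Bmal1, the activator, and Dbp, one of its output genes, had r = -0.927 (exact permutation adjusted p = 0.0119) and rho = -0.888 (adjusted p = 0.0167), and r = -0.835 without the 2 rats farthest from the median of Bmal1. With the replicate number as a block the pair had r = -0.937 and did not pass (exact permutation adjusted p = 0.0556). Bmal1 levels were 0.32, 0.82 and 1.51 in TBA rats under CO2-O2, against -0.54, -0.53 and 0.22 in vehicle rats under CO2-O2. Levels under isoflurane were -0.86, -0.84 and -0.68 in TBA rats, against -3.03, -2.68 and -2.44 in vehicle rats. Dbp levels were 3.32, 4.49 and 4.98 in TBA rats under CO2-O2, against 4.91, 5.57 and 5.75 in vehicle rats under CO2-O2. Under isoflurane Dbp levels were 5.75, 5.95 and 5.99 in TBA rats, against 6.47, 6.49 and 6.58 in vehicle rats. CO2-O2 rats thus supplied most of the deviation, 77.1% of that of Dbp lying in the TBA group. The other passing pairs were Hba-a1 with Hbb, Alas2 with Hbb, Irf7 with Ifit3, Ptprc with Cd53 and Cd74 with RT1-Da, with r from 0.818 to 0.991, of which Ptprc with Cd53 did not pass by rho (exact permutation adjusted p = 0.0606). By r Ptprc with Cd53 was lost in 6 of 12 fits that left out 1 rat, those without vehicle CO2-O2 replicate 3, TBA CO2-O2 replicate 1, vehicle isoflurane replicate 1 or any of the TBA isoflurane rats (exact permutation adjusted p up to 0.0833). Cd74 with RT1-Da was lost without TBA isoflurane replicate 2 or 3 (up to 0.0521), and Irf7 with Ifit3 without TBA isoflurane replicate 2 (0.05).

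The 26 other pairs did not pass by r, which does not show that they were unrelated. Bmal1 and its partner Npas2 had r = 0.792 (exact permutation adjusted p = 0.0581), and Dbp with Nr1d1 r = 0.871 (adjusted p = 0.118), falling to r = 0.657 without 2 rats. Fos and Egr1 had r = 0.134, Actb and Gapdh r = 0.125, Mt1 and Mt2A, metallothioneins, r = 0.296, and Per1 and Per2 r = -0.379. Clu and Spp1, markers of tubular injury, had r = 0.286. Without TBA isoflurane replicate 2, 6 pairs passed by r.

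**Figure D5:**
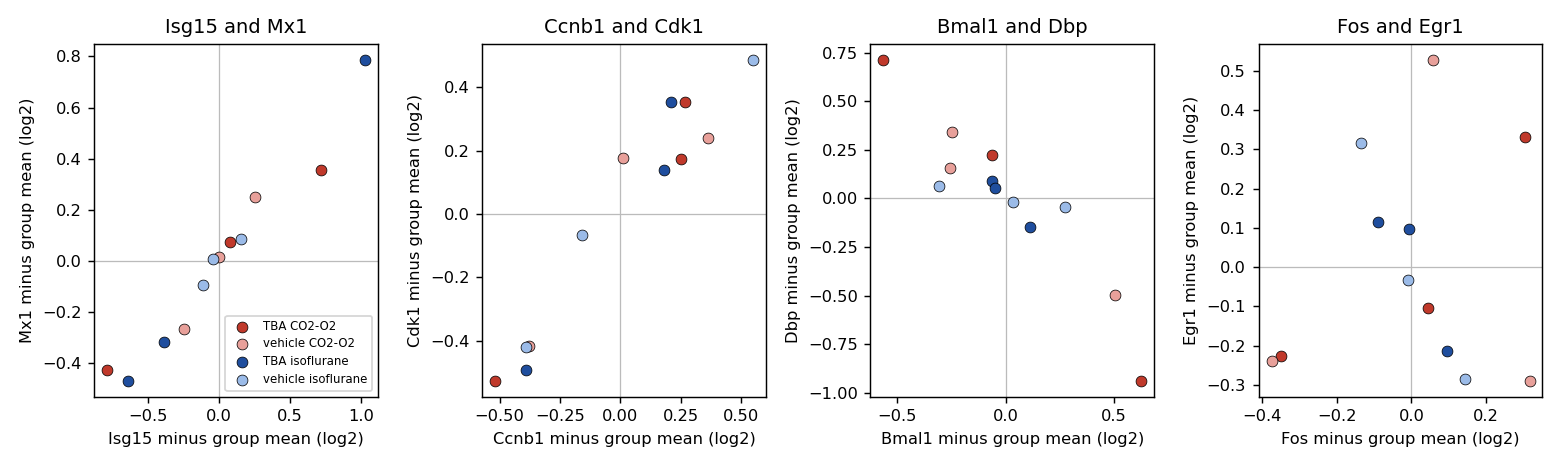
Each point is 1 rat, placed by its deviation from its group mean (log2) in the gene on the horizontal axis and in the gene on the vertical axis, coloured by group. Isg15 with Mx1 and Ccnb1 with Cdk1 lie along a rising line (r = 0.979 and 0.964), Bmal1 with Dbp falls (r = -0.927), and Fos with Egr1 shows no line (r = 0.134).

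Over all features the first principal component of the deviations held 22.0% of their sum of squares and the second 15.9%, where an even split over 8 components gives 12.5%. Leukocyte markers (mean r = 0.62) and interferon genes (0.61) lay at one end of the first component and S3 markers (-0.64), androgen-regulated genes (-0.47) and red blood cell markers (-0.41) at the other. Deviations were not scaled, so wide genes weigh most on a component. The largest loadings on the first were those of Mis18a (2.18) and Gal (-5.05), which followed it only at r = 0.47 and -0.44. Gzma, a protease of cytotoxic lymphocytes, was among the 8 genes with the largest positive loading (r = 0.91 with the component), and Gc, the vitamin D binding protein, among the negative ones (r = -0.93). Ppp1r1b (r = -0.92) and Spetex2f (r = -0.89) also lay at the negative end. On the second component ribosomal protein genes (0.53), liver genes (0.51), principal cell markers (0.47) and the alpha-2u list (0.46) lay at the positive end. Tac4 (r = -0.81) and Or13p4 (r = -0.80) had its largest negative loadings.

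Detection and brightness of the arrays were set against both components. The second component fell with the share of probes well above background, which ran from 61.6% to 71.0% over the arrays (Pearson r = -0.946, permutation adjusted p = 0.0123; Spearman rho = -0.86, adjusted p = 0.0247; 12 rats, adjusted over 4 relations), and r was -0.856 without the 2 arrays farthest from the median share. Its part in the co-variation of liver and ribosomal genes was not tested. For the first component neither that share (r = -0.06, permutation adjusted p = 0.860) nor the array's 75th percentile of intensity (r = -0.19, adjusted p = 0.818) passed. The second component with that percentile gave r = -0.65 (permutation adjusted p = 0.176) and rho = -0.68 (adjusted p = 0.142). No spot was saturated.

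The probes of a gene agreed better the wider it was. For 5500 genes with at least 2 probes, the median correlation between the 2 brightest probes was 0.436 in the narrowest 25%, 0.835 in the widest 25% and 0.938 in the 381 genes of the widest 10%. The genes that were wide in one set of rats were often wide in the other. The spread in TBA rats correlated with that in vehicle rats over features at rho = 0.64, with 1477 of 2846 widest features shared, 51.9%, and the spread under isoflurane with that under CO2-O2 at rho = 0.64, with 52.6% shared. Within bins of equal level the median rho was 0.52 and 0.51.

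Rats were then compared for how far they differed among themselves. The median spread was 0.138 in TBA rats, against 0.119 in vehicle rats, and 0.129 both under isoflurane and under CO2-O2. By group it was 0.127 in TBA rats under CO2-O2, against 0.0995 in vehicle rats under CO2-O2, and 0.121 in TBA rats under isoflurane, against 0.109 in vehicle rats under isoflurane. Of the TBA CO2-O2 arrays 1 lay on another slide than the other 2. A limma fit on the absolute deviations called no feature wider or narrower in TBA than in vehicle rats after Benjamini-Hochberg adjustment (0 of 28451, 0%), with an unadjusted p under 0.05 for 2988 wider features, 10.5%, and 1333 narrower ones, 4.69%. In isoflurane against CO2-O2 rats it also called 0, with an unadjusted p under 0.05 for 2122 wider features, 7.46%, and 1786 narrower ones, 6.28%. On simulated arrays, 11.3% of features of equal spread had an unadjusted p under 0.05 for TBA against vehicle, wider and narrower together. The test recovered 0% of 200 features made 4 times wider, so these counts of 0 do not show equal spread. With a trended, robust spread the counts were 448 wider and 186 narrower in TBA rats and 178 wider and 163 narrower under isoflurane. With the slide inside the group removed, the same fit as without TBA CO2-O2 replicate 3, they were 225 wider in TBA rats and 178 narrower under isoflurane. Leaving out each rat in turn gave 49 features without vehicle CO2-O2 replicate 2 to 1797 without TBA CO2-O2 replicate 2 for TBA, and 87 to 1193 for isoflurane, where a group of 2 rats has equal absolute deviations by construction. No feature is named from these counts.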

How the data were processed

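Total RNA of 12 renal cortices was hybridised to Agilent arrays, 1 per rat. Per the file headers, the deposited intensity values were background-subtracted within each array; the submitters' processing notes name Agilent Feature Extraction 10.7. The deposited series table appears to hold a ratio of intensity to each array's 75th percentile; this scale was inferred here from its values. It was an alternative, with 0 of its sample columns unused. All 12 columns followed an array of their own group, and 0 the array of their own sample. Slides and replicate numbers are those of the scanner file listed for each sample. Probe accessions were matched to RefSeq (GRCr8), which gave 27447 probes 1 symbol each, for 15278 symbols. RefSeq also supplied promoters.

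Of the 3 slides, the first carried all vehicle and 1 of the TBA rats killed under CO2-O2, the second the remaining 2 with the vehicle isoflurane rats, and the third the TBA isoflurane rats, so slide and group cannot be told apart otherwise. The 12 arrays limit the precision. Spread tests used limma 3.58.1 in R 4.3.3, and the rest Python 3.11.15 with numpy 2.4.6, pandas 2.3.3, scipy 1.17.1 and matplotlib 3.10.9. Statistics were tested on simulated data. Genes named are the 20 widest and 10 narrowest, up to 4 widest and 2 narrowest of a list, genes of the pairs, the 8 largest loadings of each sign and a preset group; genes named for a gap, likeness or neighbourhood were chosen after their values were seen. The members and lists were chosen with earlier results of these data known. Replicate numbers were not taken to pair the samples. Of 18 same-numbered pairs 2 had a correlation over 0.1, with r from -0.145 to 0.192. Arrays of different number were not compared, so this check cannot exclude pairing. Alternatives covered background correction, scaling, the detection filter, slide and each rat left out. Results for some items are not reported here.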

Additional observations from a re-analysis of the deposited data

How the results depend on the processing

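The median spread of 0.138 was 0.109 with normexp background correction, 0.152 with a looser detection filter and 0.0988 in the brighter 50% of features. The share of features with a spread of at least 0.5, 3.53%, was 1.66%, 6.30% and 2.32% in the same order. The share of the first component, 22.0%, was 19.3% with the looser filter, 27.2% in the brighter 50% and 24.3% for features with a symbol. It was 27.4% with the replicate number as a block. With the slide inside the group removed, the same fit as without TBA CO2-O2 replicate 3, it was 24.7%. It lay between 20.2% and 25.5% without each rat in turn. The block and leave-out fits have fewer degrees of freedom, so the deviations split over fewer components and an even share is above 12.5%. First-component shares of these fits are thus not directly comparable with 22.0%. Beyond this the cause was not tested, other than that a filter changes which features enter.

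The number of features called for a different spread, 0 in both comparisons, was 634 (TBA) and 341 (isoflurane) with a trended and robust variance, and 1 (isoflurane) with a ratio of pooled variances. With the slide inside the group removed, which leaves out TBA CO2-O2 replicate 3, the lone array of its group on its slide, the number was 225 and 178. Without each rat in turn it lay between 49 and 1797 for TBA and between 87 and 1193 for isoflurane. In a group of 2 rats both absolute deviations are equal by construction. With the replicate number as a block it was 0 in both. Bmal1 and Dbp then had r = -0.937 (exact permutation adjusted p = 0.0556, against 0.0119), the 1 of the 10 pairs that no longer passed under the block. Pairs that passed numbered 6 without TBA isoflurane replicate 2, against 10, and between 6 and 10 over all rats left out. The correlation of Fos and Egr1 lay between -0.12 and 0.441 without each rat. It was lowest without TBA CO2-O2 replicate 3, which is also the fit with the slide removed. That of Actb and Gapdh was -0.11 with normexp and between -0.095 and 0.453 without each rat. Without each rat Per1 and Per2 lay between -0.64 and 0.0027.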
